A study of Mus musculus with 24 samples.

Results

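The Ly49 receptors, encoded by the Klra genes, were examined in natural killer (NK) cells sorted from mouse melanomas. The 10 genes described here were taken by symbol from a gene count table of 53465 gene identifiers, and all 10 were found: Klra1 (Ly49A), Klra3 (Ly49C), Klra4 (Ly49D), Klra5 (Ly49E), Klra6 (Ly49F), Klra7 (Ly49G), Klra8 (Ly49H), Klra9 (Ly49I), Klra10 (Ly49J) and Klra17 (Ly49Q). Of the 10 genes, 9 passed the filter on low counts and were tested among 10536 genes; Klra17 did not pass it.

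Each library held polyadenylated RNA from 100 sorted cells, copied into full-length cDNA and amplified before sequencing. There were 24 libraries, 6 from each of 4 populations: CD27+CD69+, CD27+CD69-, CD11b+CD69+ and CD11b+CD69-. All came from wild-type female B6 mice that carried B16F10 melanoma under the skin of the flank, and the tumours were taken at day 14. The populations differed by surface staining alone, with no treatment or genetic change between them. The cell type label names melanoma, the tumour, not the sorted cells, and the labels do not give the remaining sort gates. The labels do not say whether libraries of 1 population came from separate mice, so p-values measure the spread between these libraries, which may be technical.

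Ly49 receptors are lectin-like homodimers through which mouse NK cells read class I molecules on other cells. The inhibitory members carry an immunoreceptor tyrosine-based inhibitory motif (ITIM) in the cytoplasmic tail and recruit phosphatases such as the Ptpn6 product. Ly49D and Ly49H lack the motif, pair with the adaptor encoded by Tyrobp and activate the cell. Each NK cell displays only some of the family, and the repertoire is built up as the cell matures. CD27+ cells are the less mature and CD11b+ cells the more mature stage. In B6 mice the Klra3 and Klra9 products bind the self class I molecule H2-K, whereas Klra8 is known for recognising a cytomegalovirus protein. CD69 is induced on recently activated lymphocytes and also marks cells held in tissues.

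The division of the family into inhibitory and activating members can be read at the start of the coding sequences. The first 60 coding bases of 5 members are shown because they cover the 3 patterns of expression described below for the inhibitory members, and both activating members. They come from the GENCODE M21 transcripts (GRCm38), all on the minus strand of chromosome 6, at chr6:130191242-130191301 for Klra9, chr6:130025160-130025219 for Klra6, chr6:130231558-130231617 for Klra7, chr6:130065243-130065302 for Klra4 and chr6:130128101-130128160 for Klra8. Capitals mark the 18 bases that encode an ITIM.
Klra9: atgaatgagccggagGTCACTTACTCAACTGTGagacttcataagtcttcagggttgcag
Klra6: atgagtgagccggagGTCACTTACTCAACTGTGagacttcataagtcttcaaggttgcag
Klra7: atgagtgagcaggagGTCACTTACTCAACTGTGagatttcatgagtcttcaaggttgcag
Klra4: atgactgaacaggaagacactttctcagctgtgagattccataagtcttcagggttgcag
Klra8: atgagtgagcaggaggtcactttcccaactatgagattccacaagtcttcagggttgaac
The motif searched was isoleucine, leucine or valine, then any residue, tyrosine, any pair of residues, and isoleucine, leucine or valine, within the first 45 codons of the longest annotated coding sequence. It was found, starting at codon 6, in 8 of the 10 members and not in Klra4 or Klra8. Across the 21660 protein-coding genes searched in the same way, 4.01% held it.

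All 10 genes lie on chromosome 6, minus strand, between Klra17 at 129831154 to 129876672 and Klra1 at 130363917 to 130386874 (GRCm38), and no exon of any of them overlaps an exon of another annotated gene. The members resemble each other, so a count can include reads from a relative. Of the distinct 50-base stretches in each gene's transcripts, 39.8% were also found in another gene's transcripts for Klra10, 33.1% for Klra8, 31.5% for Klra9, 20.7% for Klra3 and 12.3% for Klra7. The share was at most 4.68% for Klra1, Klra4, Klra5, Klra6 and Klra17. Klra9 shared most with Klra3, Klra10 with Klra9, Klra8 with the pseudogene Klra14-ps and Klra7 with the pseudogene Klra13-ps. The labels do not say how the authors treated reads that map to several genes, so the values of Klra3, Klra7, Klra8, Klra9 and Klra10 are uncertain in that respect.

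The sorted populations carried the transcripts of their sort markers. Levels are given as CPM, counts per 1000000 counts of the library, with library sizes scaled by edgeR's TMM method. Itgam, which encodes CD11b, averaged 4.89 ± 5.15 CPM in CD27+CD69+ and 11.9 ± 6.49 CPM in CD27+CD69- libraries (SD, n = 6 each). It averaged 48.4 ± 11.3 CPM in CD11b+CD69+ and 89.3 ± 27.4 CPM in CD11b+CD69- libraries. Cd27 averaged 340.0 CPM in CD27+CD69+, 270.2 in CD27+CD69-, 141 in CD11b+CD69+ and 87.5 in CD11b+CD69- libraries. Cd69 averaged 1165 CPM in CD27+CD69+, 719 in CD27+CD69-, 1107 in CD11b+CD69+ and 605 in CD11b+CD69- libraries. All 15 NK identity genes had counts in every population, and their summed level was lowest in CD27+CD69- libraries, at 11745 to 20058 CPM, against 20098 to 28721 CPM in the other 18. Genes of fibroblasts summed to 544 to 11568 CPM in the CD27+CD69- libraries and to at most 302 CPM in any other library. Replicate 6 of CD27+CD69- stood apart, with the lowest NK sum of all libraries and 9718 CPM of melanoma genes. The fibroblast and melanoma transcripts cannot be told apart from the CD27+CD69- population itself, so the calls of Ly49 genes and named partner genes that involve this population are accompanied by fits with replicate 6 left out and with these 2 marker sums as covariates. The fit with covariates called few genes of any kind in comparisons with this population.

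**Figure D1:**
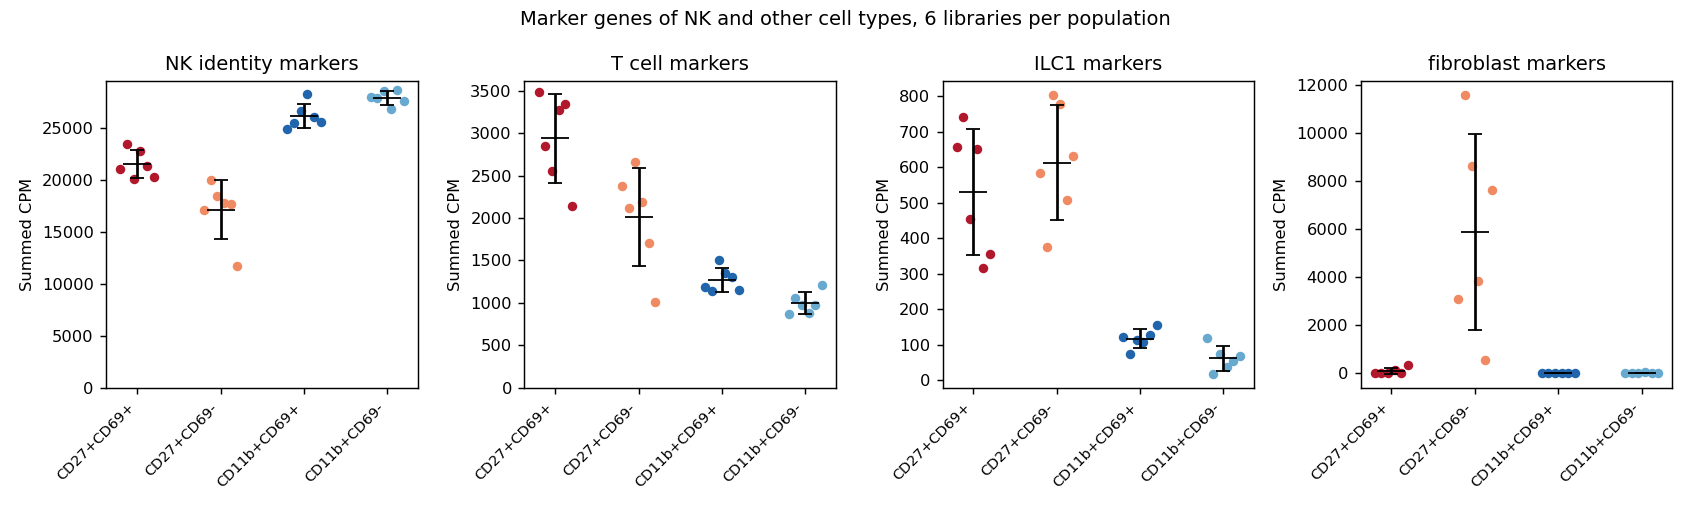
Summed CPM of the NK identity, T cell, ILC1 and fibroblast marker genes in the 24 libraries. Each point is 1 library and the bars show mean ± SD (n = 6 per population); fibroblast genes reached 544 to 11568 CPM in CD27+CD69- libraries, ILC1 genes were higher in every CD27+ library than in any CD11b+ library, and the T cell sum was highest in CD27+CD69+.

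The family as a whole made up a similar part of the libraries in 3 populations and a smaller part in the fourth. The summed CPM of the 10 genes ran from 3386 to 4769 (median 4024) in CD27+CD69+, from 1590 to 3097 (median 2829) in CD27+CD69-, from 3846 to 6085 (median 5012) in CD11b+CD69+ and from 4227 to 5238 (median 4758) in CD11b+CD69- libraries. The CD27+CD69- libraries lay below all libraries of the other populations, in the population with the least NK transcripts. Expressed per 10000 counts of the 15 NK identity genes, the 4 ranges overlapped: 1593 to 2191 in CD27+CD69+, 1345 to 1740 in CD27+CD69-, 1504 to 2152 in CD11b+CD69+ and 1573 to 1824 in CD11b+CD69-. No test was run on these sums.

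Which member led the family differed between populations, though in bulk samples more cells with a receptor and more of its RNA per cell cannot be told apart. Per kilobase of exon, Klra7 had the highest mean level in CD27+CD69+ libraries, at 1026 CPM per kilobase, followed by Klra4 at 801, Klra8 at 467, Klra1 at 323 and Klra9 at 290. In CD27+CD69- libraries the order was Klra7 at 710.0, Klra4 at 572, Klra8 at 278, Klra1 at 169 and Klra9 at 148 CPM per kilobase. In CD11b+CD69+ libraries Klra4 led at 1224 CPM per kilobase, ahead of Klra7 at 859, Klra8 at 790 and Klra9 at 560. In CD11b+CD69- libraries Klra4 stood at 1038, Klra9 at 844.5, Klra7 at 713 and Klra8 at 622 CPM per kilobase. Klra3 lay between 77.6 and 326 CPM per kilobase, and Klra5, Klra6, Klra10 and Klra17 were lower still, the highest of them being Klra6 at 99.7 in CD27+CD69+.

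The composition of the family, as shares of the counts of the 10 genes, followed the same split. Klra9 took 5.65 to 12.5% of them in CD27+CD69+, 4.87 to 11.2% in CD27+CD69-, 9.76 to 18.4% in CD11b+CD69+ and 20.1 to 24.6% in CD11b+CD69- libraries. Klra7 took 28.8 to 34.1% in CD27+CD69+, 30.4 to 39.2% in CD27+CD69-, 19.0 to 24.6% in CD11b+CD69+ and 17.6 to 20.4% in CD11b+CD69- libraries, so that the CD27+ and CD11b+ ranges did not overlap. Klra6 took 1.05 to 4.14% in the CD27+ libraries and 0.0573 to 0.758% in the CD11b+ ones, also with no overlap. Shares add to a fixed total, so a lower share of 1 gene raises those of the others.

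**Figure D2:**
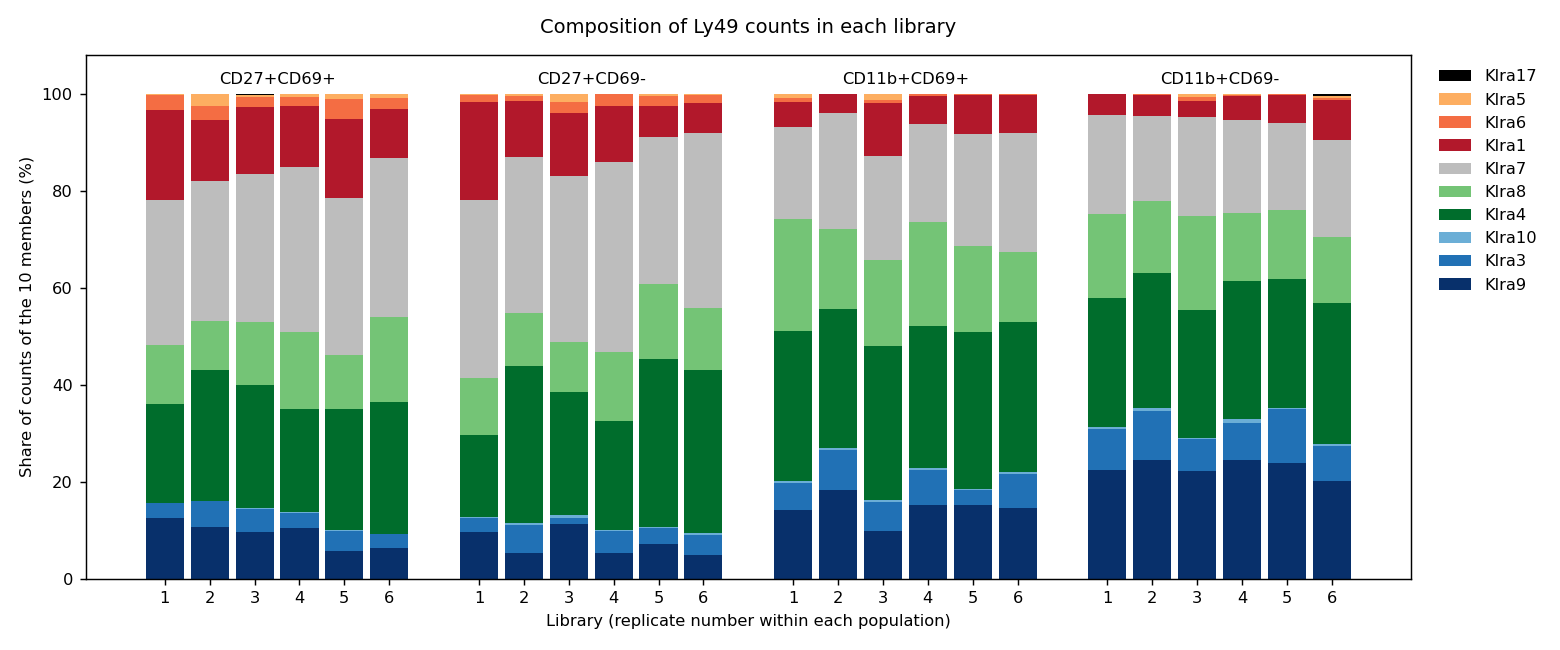
Share of the counts of the 10 Ly49 genes taken by each gene (percent, stacked to 100) in each of the 24 libraries, by population and replicate. Klra9 and Klra3 (blue) took more of the counts in CD11b+ libraries, and Klra7 (grey) and Klra1 and Klra6 (red and orange) more in CD27+ libraries; green marks the activating Klra4 and Klra8.

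The main contrast for the family was between the less mature CD27+ and the more mature CD11b+ cells, tested separately among CD69+ and CD69- cells with edgeR's quasi-likelihood test and Benjamini-Hochberg adjustment over all 10536 genes. Among CD69+ cells, 4 of the 9 members tested passed an adjusted p of 0.05, 1 higher and 3 lower in CD27+, where 1.90% of all genes passed, 0.987% higher and 0.911% lower. Among CD69- cells 6 of the 9 passed, 1 higher and 5 lower, where 12.4% of all genes passed, 7.46% higher and 4.92% lower. The median log2 fold change of the 9 members was -0.61 among CD69+ and -0.83 among CD69- cells, and that of all genes tested was 0.02 and 0.05. The 3 members lower among CD69+ cells were Klra4, Klra8 and Klra9. Among CD69- cells Klra3 and Klra10 joined them, and Klra6 was the member higher in both. With the fibroblast and melanoma sums as covariates, only the call of Klra9 held among CD69- cells. That fit called 75 genes in all in place of 1304. Without the 5 libraries over 1000 CPM of fibroblast genes, the calls of Klra3 and Klra9 held. All 5 were CD27+CD69- libraries, so this fit rests on 1 library of that population, assumed to vary like the others.

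**Figure D3:**
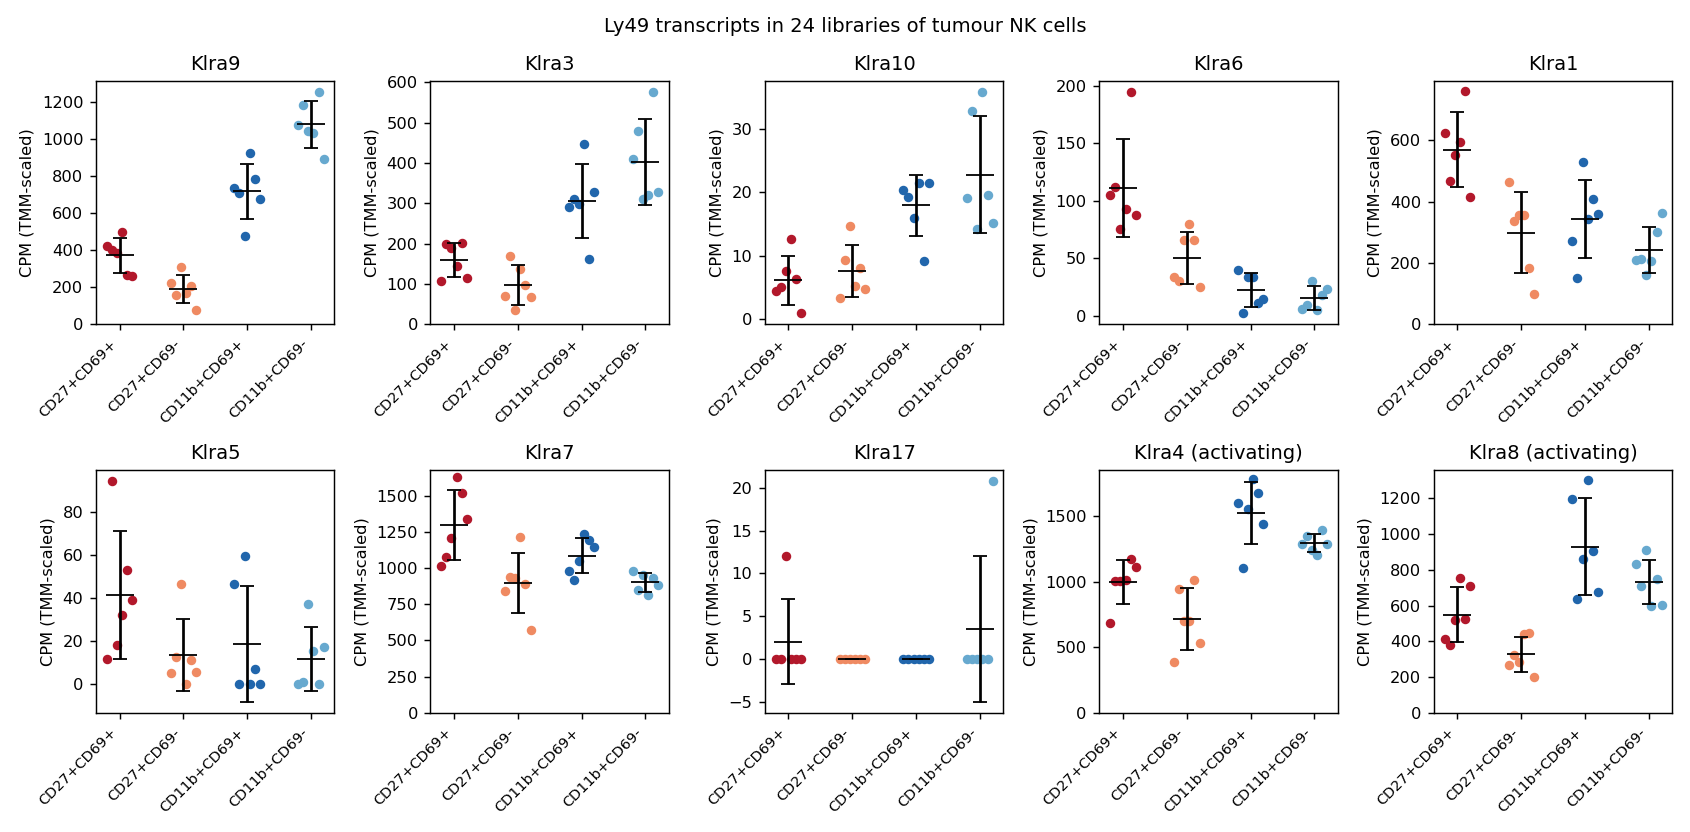
CPM (scaled by edgeR's TMM method) of the 10 Ly49 genes in the 24 libraries, a panel for each gene with its own linear axis. Each point is 1 library, and bars show mean ± SD (n = 6 per population). Klra9 and Klra3 were highest in CD11b+CD69-, Klra6 and Klra1 highest in CD27+CD69+, and Klra17 was at 0 in 22 libraries.

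Klra9 encodes Ly49I, an inhibitory receptor, and separated the populations most clearly. It ran from 259 to 498 CPM (median 392) in CD27+CD69+, from 77.5 to 308 CPM (median 187) in CD27+CD69-, from 475.5 to 922 CPM (median 721) in CD11b+CD69+ and from 890.2 to 1253 CPM (median 1060) in CD11b+CD69- libraries. The CD27+CD69- libraries all lay below both CD11b+ populations, and the CD27+CD69+ libraries all lay below CD11b+CD69-. The CD27+CD69+ and CD11b+CD69+ ranges overlapped only at their ends.

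Klra9 was lower in CD27+ than in CD11b+ cells among CD69+ cells, with a log2 fold change of -0.95 ± 0.21 (SE; adjusted p = 0.0102, edgeR). Among CD69- cells the log2 fold change was -2.48 ± 0.22 (adjusted p = 1.699e-08, edgeR), and without replicate 6 of CD27+CD69- it was -2.33. With the fibroblast and melanoma covariates it was -2.34 (adjusted p = 0.00773, edgeR). All 6 CD27+ libraries lay below the CD11b+ median in this comparison. The call among CD69- cells held in every alternative fit that was run.

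Klra3 encodes Ly49C, the other receptor known to bind H2-K in B6 mice. Its levels were 106 to 202 CPM (median 167) in CD27+CD69+, 35.4 to 169 CPM (median 83.6) in CD27+CD69-, 161 to 446 CPM (median 305) in CD11b+CD69+ and 309.5 to 576 CPM (median 368) in CD11b+CD69- libraries. Both CD27+ populations lay wholly below CD11b+CD69-, and overlapped CD11b+CD69+ through its lowest library. Among CD69- cells Klra3 was lower in CD27+ by a log2 fold change of -2.04 ± 0.28 (adjusted p = 1.009e-05, edgeR). Among CD69+ cells the log2 fold change was -0.94 ± 0.27 and did not pass (adjusted p = 0.0769, edgeR). Klra3 passed among CD69+ cells with DESeq2 (adjusted p = 0.0226) and in edgeR with those 2 populations alone (adjusted p = 0.022). Both fits rest on the same CD69+ libraries as the comparison that did not pass, so they are not separate checks. Without replicate 6 of CD27+CD69- the CD69- value was -1.96 (adjusted p = 4.775e-05, edgeR), and with the fibroblast and melanoma covariates it was -1.45 and no longer passed (adjusted p = 0.526, edgeR).

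Klra10 encodes Ly49J, a further inhibitory member, and was scarce. It ran from 0.956 to 12.6 CPM (median 5.72) in CD27+CD69+, from 3.41 to 14.7 CPM (median 6.66) in CD27+CD69-, from 9.12 to 21.5 CPM (median 19.8) in CD11b+CD69+ and from 14.2 to 35.8 CPM (median 19.3) in CD11b+CD69- libraries. The CD27+CD69+ libraries lay below all CD11b+CD69- libraries, and the other CD27+ and CD11b+ ranges overlapped. The log2 fold change was -1.54 ± 0.49 among CD69- cells (adjusted p = 0.0365, edgeR) and -1.54 ± 0.49 among CD69+ cells (adjusted p = 0.121, edgeR). The CD69- call was lost without any 1 of 6 libraries, replicates 1, 4, 5 and 6 of CD27+CD69- and 2 and 4 of CD11b+CD69-, with adjusted p from 0.0193 to 0.0856 over the 12 libraries left out in turn (edgeR). The fold change without replicate 6 of CD27+CD69- was -1.44, and with the fibroblast and melanoma covariates it was -1.88 (adjusted p = 0.823, edgeR). Reads of Klra9 and Klra3, which share sequence with Klra10 and had fold changes of the same sign, cannot be told apart from its own where the sequence is shared.

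Klra6 encodes Ly49F, an inhibitory member, and was the one gene of the family called higher in CD27+ cells in both comparisons. It ran from 75.5 to 195 CPM (median 98.9) in CD27+CD69+, from 25.3 to 79.5 CPM (median 49.8) in CD27+CD69-, from 2.21 to 39.3 CPM (median 24.2) in CD11b+CD69+ and from 4.95 to 30.6 CPM (median 13.3) in CD11b+CD69- libraries. The CD27+CD69+ libraries lay above all CD11b+ libraries, while CD27+CD69- overlapped both CD11b+ populations. The log2 fold change was 2.31 ± 0.48 among CD69+ cells (adjusted p = 0.00592, edgeR) and 1.75 ± 0.48 among CD69- cells (adjusted p = 0.0152, edgeR). Leaving out replicate 6 of CD27+CD69- gave 1.87 for the comparison among CD69- cells. With the fibroblast and melanoma covariates the CD69- value was 2.73 and did not pass (adjusted p = 0.442, edgeR).

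Klra1 encodes Ly49A, an inhibitory receptor known for binding H2-D molecules of other mouse strains. It ran from 414 to 761 CPM (median 573) in CD27+CD69+, from 99.6 to 463 CPM (median 346) in CD27+CD69-, from 149 to 528 CPM (median 351) in CD11b+CD69+ and from 161 to 363 CPM (median 210.2) in CD11b+CD69- libraries. The CD27+CD69+ libraries lay above all CD11b+CD69- libraries, and the remaining ranges overlapped. Neither CD27+ against CD11b+ comparison passed, with a log2 fold change of 0.73 ± 0.28 among CD69+ cells (adjusted p = 0.234, edgeR) and 0.33 ± 0.28 among CD69- cells (adjusted p = 0.536, edgeR). The CD69- value was 0.51 without replicate 6 of CD27+CD69- and 0.33 with the marker covariates.

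Klra5 encodes Ly49E, known in mice from fetal NK cells and type 1 innate lymphoid cells (ILC1). It ran from 11.6 to 94.4 CPM (median 35.7) in CD27+CD69+, from 0 to 46.5 CPM (median 8.47) in CD27+CD69-, from 0 to 59.4 CPM (median 3.52) in CD11b+CD69+ and from 0 to 37.2 CPM (median 8.27) in CD11b+CD69- libraries. It had counts in 18 of the 24 libraries, including all 6 of CD27+CD69+, and all 4 ranges overlapped. No comparison of Klra5 passed. Its SE, 1.16 to 1.18 on the log2 scale in the pairwise comparisons, was the largest of the 9 members tested, so that differences of several fold were not detectable.

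Klra7 encodes Ly49G, an inhibitory receptor, and was the most even of the abundant members. It ran from 1017 to 1626 CPM (median 1275) in CD27+CD69+, from 574 to 1214 CPM (median 911) in CD27+CD69-, from 918 to 1232 CPM (median 1095) in CD11b+CD69+ and from 812 to 982 CPM (median 909.6) in CD11b+CD69- libraries. The log2 fold change of CD27+ against CD11b+ was 0.26 ± 0.13 among CD69+ cells (adjusted p = 0.456, edgeR) and 0.02 ± 0.13 among CD69- cells (adjusted p = 0.953, edgeR). The CD69- value was 0.12 without replicate 6 of CD27+CD69- and -0.24 with the marker covariates. Against this member, the counts of Klra9 differed by population: the ratio of Klra9 to Klra7 counts was 0.175 to 0.415 in CD27+CD69+, 0.135 to 0.330 in CD27+CD69-, 0.454 to 0.770 in CD11b+CD69+ and 1.0055 to 1.40 in CD11b+CD69- libraries. These ratios do not depend on library scaling, and the CD27+ and CD11b+ ranges did not overlap.

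Klra17 encodes Ly49Q, an inhibitory receptor known in mice from plasmacytoid dendritic cells. It had 24 counts, 12.1 CPM, in replicate 3 of CD27+CD69+ and 51 counts, 20.8 CPM, in replicate 6 of CD11b+CD69-. The other 22 libraries had none, which allows up to 1.12 to 2.47 CPM per library (3 counts, counting error only, without TMM scaling). Of 8 plasmacytoid dendritic cell genes, 3 to 5 had counts in each population and their summed level was 13.3 to 115 CPM, whereas Siglech, Spib and Klk1 had no counts in any library.

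Klra4 and Klra8 encode the activating receptors Ly49D and Ly49H. Klra4 ran from 685 to 1168 CPM (median 1010) in CD27+CD69+, from 389 to 1013 CPM (median 699) in CD27+CD69-, from 1102 to 1781 CPM (median 1577) in CD11b+CD69+ and from 1202 to 1389 CPM (median 1288) in CD11b+CD69- libraries. The CD27+CD69- libraries lay below all CD11b+ libraries, and the CD27+CD69+ libraries lay below all CD11b+CD69- libraries. Klra8 ran from 379.8 to 753 CPM (median 523) in CD27+CD69+, from 202 to 449 CPM (median 303) in CD27+CD69-, from 637 to 1306 CPM (median 884) in CD11b+CD69+ and from 596 to 910.4 CPM (median 728) in CD11b+CD69- libraries. Its CD27+CD69- libraries likewise lay below all CD11b+ libraries, while CD27+CD69+ overlapped both.

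Both activating members were lower in CD27+ than in CD11b+ cells. Klra4 had a log2 fold change of -0.61 ± 0.16 among CD69+ cells (adjusted p = 0.0473, edgeR) and -0.83 ± 0.16 among CD69- cells (adjusted p = 0.000847, edgeR). Klra8 had -0.76 ± 0.20 among CD69+ cells (adjusted p = 0.0438, edgeR) and -1.13 ± 0.20 among CD69- cells (adjusted p = 0.000261, edgeR). Among CD69+ cells both lay close to the threshold: leaving out 1 library at a time ended the call of Klra4 in 11 of 12 fits, all but that without replicate 2 of CD11b+CD69+, and that of Klra8 in 8 of 12, all but those without replicates 4 and 6 of CD27+CD69+ and 2 and 6 of CD11b+CD69+. Without replicate 6 of CD27+CD69- the CD69- values were -0.76 for Klra4 and -1.03 for Klra8, and with the marker covariates they were -0.85 and -1.53 and did not pass (adjusted p = 0.526 and 0.11, edgeR). The ratio of Klra8 to Klra4 counts overlapped in all populations, with medians of 0.559 in CD27+CD69+, 0.424 in CD27+CD69-, 0.566 in CD11b+CD69+ and 0.532 in CD11b+CD69- libraries.

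Part of this contrast depended on what the libraries were scaled to. The 15 NK identity genes, used as a second scale, themselves moved with the contrast under TMM. Among CD69+ cells 4 were lower and 1 higher in CD27+ (median -0.36), and among CD69- cells 11 and 1 (median -0.70). Of all genes, 0.911% and 4.92% were lower. Scaling to these genes takes a shared difference out, so a call lost on that scale is not a separate check. When library sizes were set to the summed counts of the 15 NK identity genes, the median log2 fold change of all genes moved to 0.30 among CD69+ and 0.76 among CD69- cells, and 4.48% and 41.4% of all genes passed. On that scale Klra9 remained lower in CD27+ cells, at -0.67 among CD69+ cells (adjusted p = 0.0295, edgeR) and -1.83 among CD69- cells (adjusted p = 5.954e-08, edgeR). Klra3 remained lower among CD69- cells (-1.37, adjusted p = 0.000192, edgeR), and Klra6 remained higher in both, at 2.60 and 2.42. Klra4 and Klra8 no longer passed, at -0.32 and -0.46 among CD69+ cells and -0.15 and -0.45 among CD69- cells. Klra10 no longer passed among CD69- cells either, at -0.90 (adjusted p = 0.145, edgeR). Klra7 and Klra1 passed as higher in CD27+, Klra7 by 0.54 and 0.70 and Klra1 by 1.02 and 0.97. Klra7 was thus close to the shifted median of all genes among CD69- cells, and Klra1 above it in both.

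**Figure D4:**
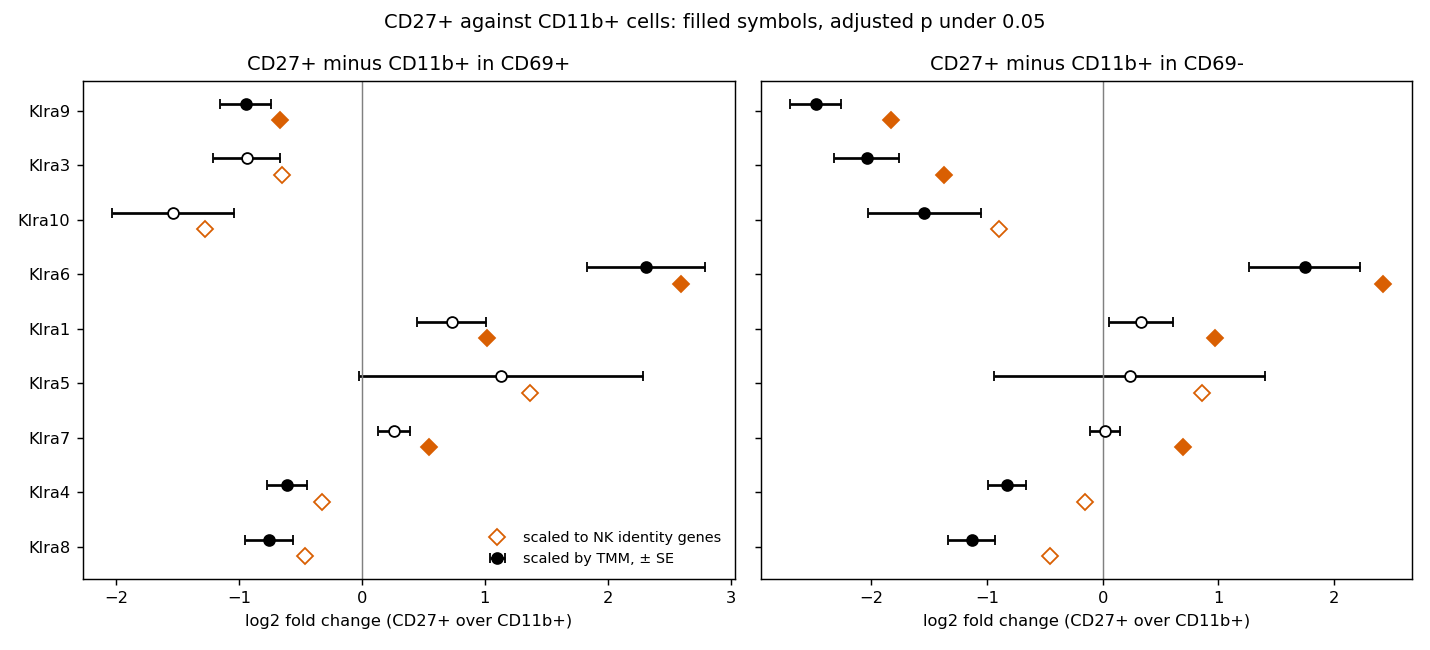
Log2 fold change of CD27+ over CD11b+ for the 9 Ly49 genes tested, among CD69+ cells (left) and CD69- cells (right). Black circles are scaled by TMM with bars of ± SE, orange diamonds are scaled to the NK identity genes and carry no error bar, and filled symbols passed an adjusted p of 0.05. Klra9 lies left of 0 and Klra6 right of 0 on both scales in both panels.

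Markers of other lymphocytes moved with the same contrast. Of the 9 T cell genes tested, 8 were higher in CD27+ among CD69+ cells and 8 among CD69- cells. Of the 8 ILC1 genes, 3 and 6 were higher. Of all genes, 0.987% and 7.46% were higher. The T cell sum was 2139 to 3483 CPM in CD27+CD69+, 1010 to 2659 CPM in CD27+CD69-, 1143 to 1502 CPM in CD11b+CD69+ and 868 to 1216 CPM in CD11b+CD69- libraries. The ILC1 sum was 316 to 742 CPM in CD27+CD69+, 375 to 804 CPM in CD27+CD69-, 73.3 to 156 CPM in CD11b+CD69+ and 17.3 to 119 CPM in CD11b+CD69- libraries. Trbc1, the most abundant of the T cell genes, averaged 1058 CPM in CD27+CD69+, 868 in CD27+CD69-, 1008 in CD11b+CD69+ and 803 in CD11b+CD69- libraries. Most of the T cell sum in CD11b+ libraries was thus Trbc1. Cd3g averaged 547 CPM in CD27+CD69+, 296 in CD27+CD69-, 39.2 in CD11b+CD69+ and 3.18 in CD11b+CD69- libraries. Cd6 averaged 12.6 CPM in CD27+CD69+ and 25.6 CPM in CD27+CD69- and was at 0 in all CD11b+ libraries. Among the coreceptor genes, Cd8a averaged 13.4 CPM in CD27+CD69+, 9.89 in CD27+CD69-, 0 in CD11b+CD69+ and 0.326 in CD11b+CD69- libraries, Cd4 at most 1.89 and Cd8b1 at most 3.05 CPM in any population. Whether these transcripts came from T cells or ILC1, and the part of such cells in the levels of Klra6, Klra1 and Klra5, was not tested.

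CD69 was compared within each maturation stage. Among CD27+ cells, 2 of the 9 members tested were higher in CD69+ cells and none lower, where 1.85% of all genes passed, 0.550% higher and 1.30% lower. Klra9 had a log2 fold change of 0.94 ± 0.21 (adjusted p = 0.0139, edgeR), with 259 to 498 CPM in CD69+ and 77.5 to 308 CPM in CD69- libraries. Klra7 had 0.51 ± 0.13 (adjusted p = 0.0377, edgeR), with 1017 to 1626 CPM in CD69+ and 574 to 1214 CPM in CD69- libraries. All 6 CD27+CD69+ libraries lay above the CD27+CD69- median of Klra7, though the ranges overlapped. Klra8 had 0.72 ± 0.20 and missed the threshold (adjusted p = 0.0578, edgeR), whereas DESeq2 called it (0.69, adjusted p = 0.0217), as did edgeR with a replicate block (0.74, adjusted p = 0.0407).

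The call of Klra7 as higher in CD69+ cells lay close to the threshold. The call was lost without any 1 of replicates 4 and 5 of CD27+CD69+ or 1, 2, 3 and 6 of CD27+CD69-, with log2 fold changes of 0.41 to 0.61 over the 12 fits and 0.41 without replicate 6 (adjusted p = 0.0819, edgeR). That of Klra9 held in all 12, with 0.79 without replicate 6 (adjusted p = 0.0203, edgeR). On the scale of the NK identity genes, where the median of all genes moved to -0.34 and 4.60% of genes passed, Klra9 remained higher by 0.66 (adjusted p = 0.0363, edgeR) and Klra7 did not pass (0.21). With the marker covariates no member passed, at 0.89 for Klra9 and 0.74 for Klra7, in a fit that called 3 genes in all in place of 195.

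Among CD11b+ cells no member passed in edgeR, where 2.74% of all genes did; 2 members had an unadjusted p under 0.05, DESeq2 called 0 and limma-voom called 1. The member nearest to the threshold was Klra9, with 475.5 to 922 CPM in CD69+ and 890.2 to 1253 CPM in CD69- libraries and a log2 fold change of -0.59 ± 0.21 (adjusted p = 0.139, edgeR). A fit to the CD11b+ libraries alone and limma-voom both called it lower in CD69+ (adjusted p = 0.0118, edgeR, and 0.0203, limma-voom). Leaving replicate 6 of CD27+CD69- out of the fit to all populations gave 1 inhibitory member called lower in CD69+. In that fit 140 of 10726 genes were lower. The log2 fold changes of the other members ran from -0.40 for Klra3 to 0.66 for Klra5, and the median of the 9 was 0.27, against 0.00 for all genes.

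The CD69 difference of Klra9 thus had opposite signs at the 2 stages. The difference of the CD69 differences, CD27+ minus CD11b+, was 1.53 ± 0.29 on the log2 scale (adjusted p = 0.0119, edgeR), and Klra9 was the only 1 of the 9 members to pass, where 0.579% of all genes passed. The call held on the scale of the NK identity genes (1.16, adjusted p = 0.0206, edgeR) and without each of the 24 libraries in turn. It did not hold with the marker covariates (1.41, adjusted p = 0.439, edgeR) or without the 5 libraries over 1000 CPM of fibroblast genes (1.40, adjusted p = 0.147, edgeR), which leaves 1 library of CD27+CD69-, assumed to vary like the others. Klra3 had a difference of 1.10 ± 0.38 and did not pass (adjusted p = 0.262, edgeR).

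The populations farthest apart in both markers were CD27+CD69+ and CD11b+CD69-. In this comparison 6 of the 9 members passed, 3 higher and 3 lower, where 11.0% of all genes passed, 6.39% higher and 4.61% lower. Klra6 was higher by 2.87 ± 0.49 (adjusted p = 0.000174, edgeR), Klra1 by 1.23 ± 0.28 (adjusted p = 0.0036, edgeR) and Klra7 by 0.53 ± 0.13 (adjusted p = 0.00701, edgeR). Klra9 was lower at -1.54 ± 0.21, Klra3 at -1.34 ± 0.27 and Klra10 at -1.88 ± 0.50. The ranges of these 6 genes did not overlap between the populations, and neither did those of Klra4, which was not called. The share of all genes with no overlap was not counted. Scaled to the NK identity genes, the ranges of Klra10 and Klra4 overlapped. Neither population carried fibroblast transcripts above 302 CPM. T cell and ILC1 markers moved with this comparison, with 9 of 9 T cell genes and 6 of 8 ILC1 genes higher in CD27+CD69+ (median log2 fold changes 5.20 and 3.35), and replicate 6 of CD27+CD69+ held 772 CPM of melanoma genes; their part in these differences was not tested. All 6 calls held with the fibroblast and melanoma covariates and when each of the 12 libraries was left out. With the covariates 973 genes in all passed in place of 1159. The fibroblast sum was mostly near 0 here, with medians of 0 CPM in CD27+CD69+ and 0.245 in CD11b+CD69-, so that covariate had little to adjust. These covariates hold no T cell or ILC1 genes. Klra4 had a log2 fold change of -0.37 ± 0.16 and Klra8 of -0.41 ± 0.20, and neither passed (adjusted p = 0.158 and 0.208, edgeR).

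For CD27+CD69- against CD11b+CD69+, 4 of the 9 members passed, all lower, where 6.19% of all genes passed, 3.78% higher and 2.41% lower. They were Klra9 at -1.89 ± 0.21, Klra3 at -1.64 ± 0.28, Klra8 at -1.48 ± 0.20 and Klra4 at -1.07 ± 0.16 on the log2 scale. Without replicate 6 of CD27+CD69- all 4 still passed, at -1.73, -1.56, -1.38 and -1.002. With the marker covariates the values were -1.82, -1.05, -1.85 and -1.09, and none passed in a fit that called 5 genes in all in place of 652. These comparisons share their libraries with those above, so their values are not independent of them.

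Each of the other Klra rows was examined because of the shared sequence. The pseudogene Klra13-ps, nearest to Klra7 in sequence, ran from 280.3 to 450.3 CPM in CD27+CD69+, from 212 to 408 CPM in CD27+CD69-, from 454 to 616 CPM in CD11b+CD69+ and from 488 to 713 CPM in CD11b+CD69- libraries. It was lower in CD27+ cells, at -0.61 among CD69+ (adjusted p = 0.0161, edgeR) and -1.10 among CD69- cells (adjusted p = 4.192e-06, edgeR), where Klra7 itself did not pass. Klra14-ps, nearest to Klra8, was lower among CD69- cells at -1.15 (adjusted p = 2.078e-05, edgeR) and did not pass among CD69+ cells at -0.49 (adjusted p = 0.144, edgeR). Klra11-ps had 165 counts over all libraries and Klra2 had 6, too few to test.

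Genes that act with the Ly49 receptors were compared next, among them the adaptors that couple the activating members to signalling. Of 13 adaptor and activating signalling genes tested, 1 was lower in CD27+ among CD69+ cells and none higher. There 0.911% of all genes were lower, and the median log2 fold change was -0.15 against 0.02 for all genes. The lower gene was Lat2, an adaptor of the LAT family, at -0.62. Among CD69- cells 5 were lower and none higher, where 4.92% of all genes were lower and 7.46% higher. The median was -0.60 against 0.05. Tyrobp, the partner of Ly49D and Ly49H, was lower at -0.70 (adjusted p = 8.283e-06, edgeR), Hcst, the adaptor of NKG2D, at -0.61 and Plcg2, a phospholipase of activating signalling, at -1.36. Scaled to the NK identity genes, which include Tyrobp, Plcg2 still passed at -0.72, and Tyrobp stood at -0.01 and Hcst at 0.05. Without replicate 6 of CD27+CD69- the CD69- values were -0.63 for Tyrobp, -0.50 for Hcst and -1.22 for Plcg2, and all 3 passed; with the marker covariates they were -0.78, -0.44 and -1.08 and did not pass.

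Of the 8 inhibitory signalling genes, none passed in edgeR among CD69+ cells, 0 with an unadjusted p under 0.05, and 1 was lower among CD69- cells, the phosphatase gene Inpp5d at -0.77 (adjusted p = 0.0187, edgeR). That 1 of 8 is near the 12.4% of all genes that passed there. Within CD27+ cells Ptpn6, the phosphatase recruited by ITIMs, was higher in CD69+ cells by 0.58 (adjusted p = 0.0367, edgeR). It was the only 1 of the 8 to pass, where 1.85% of all genes did. On the scale of the NK identity genes neither of these calls held, nor did they without replicate 6 of CD27+CD69-, at -0.68 for Inpp5d and 0.51 for Ptpn6, or with the marker covariates, at -0.69 and 0.75.

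The class I ligands of the receptors and the genes that load them with peptide were compared with CD69 in view. Of 8 such genes, 1 was higher in CD69+ among CD27+ cells, where 1.85% of all genes passed. It was H2-K1, which encodes the ligand of Ly49C and Ly49I, higher by 0.44 (adjusted p = 0.00766, edgeR), by 0.36 without replicate 6 of CD27+CD69-, where it passed, and by 0.36 with the marker covariates, where it did not. Among CD11b+ cells, where 2.74% of all genes passed, 2 were higher in CD69+, the peptide transporter gene Tap1 by 0.93 (adjusted p = 0.00341, edgeR) and B2m, the class I light chain, by 0.35 (adjusted p = 0.0113, edgeR), with a median of 0.34 against 0.00 for all genes. Between CD27+ and CD11b+ cells none passed in edgeR among CD69+ cells, 1 with an unadjusted p under 0.05, and Tapbpl, a peptide editor, was higher at 0.63 among CD69- cells. That 1 of 8 is near the 12.4% of all genes that passed; the value was 0.72 without replicate 6 of CD27+CD69- and 0.78, not passing, with the marker covariates.

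Transcription factors known in Ly49 expression and NK maturation differed between the stages. Of 17 tested, 1 was higher and 4 were lower in CD27+ among CD69+ cells, with a median of -0.46 against 0.02 for all genes. Among CD69- cells 1 was higher and 8 lower, with a median of -0.54 against 0.05. Of all genes, 0.987% were higher and 0.911% lower among CD69+ cells, and 7.46% and 4.92% among CD69- cells. Tcf7, which encodes TCF-1, a factor needed for Ly49A expression in mice, was the higher one, by 1.21 ± 0.30 among CD69+ cells (adjusted p = 0.029, edgeR) and 1.97 ± 0.31 among CD69- cells (adjusted p = 6.524e-05, edgeR). Lower ones included Klf2, a quiescence and trafficking factor, at -0.74 and -1.53, Id2, an inhibitor of E proteins, at -0.69 and -1.07, and Zeb2, a driver of terminal NK maturation, at -1.75 and -2.54. On the scale of the NK identity genes Tcf7 remained higher and Klf2 and Id2 lower in both, and Zeb2 remained lower among CD69- cells. All 4 passed among CD69- cells without replicate 6 of CD27+CD69-, and with the marker covariates Klf2 at -1.504 and Id2 at -1.06 passed and Tcf7 at 1.91 and Zeb2 at -2.88 did not.

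Other lectin-like receptors of the NK gene complex were measured beside the family. Of 15 tested, 4 were lower in CD27+ among CD69+ cells and none higher, and among CD69- cells 9 were lower and 1 higher. The medians were -0.17 and -0.48, against 0.02 and 0.05 for all genes. Of all genes, 0.911% were lower among CD69+ cells, and 4.92% were lower and 7.46% higher among CD69- cells. Klrg1, a marker of terminally mature NK cells, was lower at -2.71 ± 0.51 and -4.39 ± 0.55, and Klrb1c, which encodes NK1.1, at -0.67 and -0.94. The higher one was Clec2i, a ligand of NKR-P1 receptors, at 1.18. On the scale of the NK identity genes, which include Klrb1c, Klrd1, Klrk1 and Klre1, Klrg1 and Klrb1c remained lower in both comparisons. The medians on that scale were 0.11 and 0.20, against 0.30 and 0.76 for all genes. Klrg1, Klrb1c and Clec2i passed among CD69- cells without replicate 6 of CD27+CD69-, and with the marker covariates Klrg1 at -5.53 and Klrb1c at -1.013 passed and Clec2i at 0.93 did not.

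Genes outside the family with the most similar pattern were listed for the 3 members with the widest range of population means, as the Euclidean distance between the centred mean log2 CPM of the 4 populations over 8240 genes. For Klra6 they were Trac, the T cell receptor alpha constant gene, at a distance of 0.17, Gm19590 at 0.33 and Cd74, the class II invariant chain, at 0.40. For Klra9 they were Tmem163 at 0.21, Susd3 at 0.24 and Setbp1 at 0.26. For Klra5 they were Cd74 at 0.66, Xlr4a at 0.89 and Bicdl1 at 0.90, each farther away than any of the genes named for Klra6 and Klra9. With 4 populations as points, these distances describe likeness in level only.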

How the data were processed

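RNA from 100 cells per library was amplified with SMART-Seq v4 and made into Nextera XT libraries, per the labels' protocols. The deposited table holds raw read counts per gene; GRCm38, HTSeq and Picard are named in the submitters' processing notes, while the aligner and the treatment of reads shared between genes are not stated there. Total counts ran from 1213914 to 2671533 per library (median 2213433), and 0.174% of counts fell on rows with no symbol. The 6 rows with repeated identifiers were dropped; Itgam has 2 identifiers and the first was used.

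Genes were filtered with filterByExpr (minimum count 10), scaled by TMM and fitted with edgeR 4.0.16 (R 4.3.3) as 4 group means over all 24 libraries, with quasi-likelihood tests, Benjamini-Hochberg adjustment over 10536 genes and a threshold of 0.05. The scripts were tested on simulated data. Alternatives used DESeq2 1.42.0, limma-voom 3.58.1, other scalings, covariates and sets of libraries. SE was the log2 fold change over the root of the F statistic. The named genes were all 10 members, the other Klra rows, the sort genes, up to 4 genes per list with the smallest p among those called, and the 3 nearest in pattern to the 3 members of widest range; Clec2i was named after its value was seen. The members and lists were chosen with earlier results of these data known. Libraries of 1 population differed by more than sampling noise, with chi-square per degree of freedom of 10.4 to 31.3 over 60 pairs. Annotation and sequences were from GENCODE M21.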

Additional observations from a re-analysis of the deposited data

Results flagged for a closer look

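Of 38 groups of 6 libraries with any counts, 5 held a library far from the rest. Each library was set against the other 5 of its group. The rate of about 1 group in 20 flagged by chance holds only for normally distributed values. The groups of Klra17, with counts in a single library each, were bound to be flagged. Klra4 was low in replicate 1 of CD27+CD69+, at 685 CPM against 1004 to 1168 CPM in the other libraries of that population. Klra6 was high in replicate 5 of CD27+CD69+, at 195 CPM (194.5) against 75.5 to 112 CPM. Klra5 was high in replicate 3 of CD27+CD69-, at 46.5 CPM (46.47) against 0 to 12.8 CPM. Klra17 was counted only in replicate 3 of CD27+CD69+, at 12.1 CPM (12.07), and in replicate 6 of CD11b+CD69-, at 20.8 CPM (20.82), with 0 in the others.

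The CD69 difference of Klra9 differed between CD27+ and CD11b+ cells by the test of that difference, which was 1.53 (1.535) on the log2 scale (adjusted p = 0.0119, edgeR).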

How the results depend on the processing

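Each library held 100 amplified cells and reads are not independent molecules, so values cover library spread only; shared sequence within the family and the transcripts of other cells in CD27+CD69- are the main limits. Under the alternatives other than leaving out a library, 477 member results kept their direction and side of the threshold. A call was lost by 36 and gained by 19, and 26 changed sign. With 1 library left out, these numbers were 807, 31, 6 and 20. In these and the next counts, only libraries of the populations compared were left out. Outside them, leaving out replicate 6 of CD27+CD69- gave 1 inhibitory member called lower for CD69 in CD11b+. For 1 library left out at a time, the number of members called ran from 1 to 4 for CD69 in CD27+ (2 with all libraries), 0 to 0 for CD69 in CD11b+ (0), 2 to 4 for CD27+ against CD11b+ in CD69+ (4), 5 to 6 in CD69- (6), 6 to 6 for CD27+CD69+ against CD11b+CD69- (6), 4 to 4 for CD27+CD69- against CD11b+CD69+ (4) and 1 to 1 for the difference of CD69 differences (1). For CD69 in CD27+ (195 of all genes), DESeq2 and limma-voom called 4 (281 and 293 of all genes), the marker covariates, the 2 populations alone and the removal of libraries over 1000 CPM of fibroblast genes (chosen after seeing the data) called 0 (3, 150 and 2), and the NK scale called 1 (485). For CD69 in CD11b+, limma-voom, the 2 populations alone and that removal called 1 (362, 373 and 360 of all genes, against 289). In CD69+ (200), DESeq2 called 6 (316), the 2 populations alone 5 (228 of 9197), the covariates 3 (160) and no filter 3 (163 of 24426). The removal leaves 1 library of CD27+CD69-. In CD69- (1304), the covariates called 1 (75) and the removal 2 (254). For CD27+CD69- against CD11b+CD69+ (652), the covariates called 0 (5), the removal 1 (63) and the NK scale 6 (3469). For the difference (61), the covariates and the removal called 0 (2 and 18). The cause was not tested.

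Sign changes in log2 fold changes were of members not called in the TMM-scaled fit to all libraries, and only Klra7 passed with its sign turned, on the NK scale (0.34, adjusted p = 0.0202, edgeR). With the covariates, CD69 in CD27+ gave Klra10 0.0841, CD69- gave Klra5 -0.23 and Klra7 -0.24, and the difference gave Klra6 -0.21. With the removal, CD69 in CD27+ gave Klra4 -0.0434, CD69- gave Klra1 -0.38 and Klra5 -0.0423, and the difference gave Klra4 -0.29, Klra8 -0.079 and Klra10 -0.0687. On the NK scale, the median of all genes moved to 0.09 for CD69 in CD11b+, 0.39 and 0.65 for the comparisons of populations unlike in both markers and -0.46 for the difference. On that scale CD27+CD69+ against CD11b+CD69- gave Klra4 0.0075, CD27+CD69- against CD11b+CD69+ gave Klra1 0.38, Klra5 0.0885 and Klra7 0.34, and the difference gave Klra4 -0.17, Klra7 -0.15, Klra8 -0.0093 and Klra10 -0.37. The summed level gave 0.014 for CD27+ against CD11b+ in CD69+ and 0.18 for CD27+CD69+ against CD11b+CD69-. With limma-voom, Klra5 gave -0.25 for CD69 in CD11b+ and 1.51 for CD27+CD69- against CD11b+CD69+. Klra10 gave -0.0249 with DESeq2 size factors, -0.0405 with DESeq2, -0.21 with limma-voom and -0.0217 with no filter for the difference. With 1 library left out, Klra5 ran from -0.14 to 1.44 for CD69 in CD11b+, -0.71 to 1.02 in CD69- and -1.36 to 0.38 for CD27+CD69- against CD11b+CD69+, Klra7 from -0.0838 to 0.12 in CD69-, Klra1 from -0.34 to 0.0016 for CD27+CD69- against CD11b+CD69+ and Klra10 from -0.32 to 0.31 for the difference.

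The titles number the libraries of each population from M1 to M6, and the labels do not say what M marks. These numbers are called replicates here. Deviations of same-numbered libraries from their population means correlated by -0.03 to 0.21 over 36 pairs, 1 of them over 0.1. The median was 0.002, against -9e-04 for other pairs. Of the 24 libraries, 5 correlated best with their own number. Such values cannot show that the samples are unpaired. Because the labels leave the meaning of M open, the numbers were used as a block only in an alternative fit. With the replicate block, the members called were 3 for CD69 in CD27+, 0 for CD69 in CD11b+, 4 in CD69+, 5 in CD69-, 6 and 4 for the populations unlike in both markers and 1 for the difference, with 254, 273, 198, 1275, 1126, 632 and 65 of 10536 genes called in that order; Klra8 gained its call for CD69 in CD27+ and Klra10 lost its own in CD69- (-1.54, adjusted p = 0.054, edgeR), Klra5 gave -0.076 in CD69- and Klra10 -0.16 for the difference.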
